A study of Rattus norvegicus with 12 samples.

Results

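The genes described here carry sodium across the wall of the kidney tubule or pass on the signal of aldosterone, the steroid that makes the kidney keep sodium. They were 10 of the 18166 genes measured and were chosen by name: the sodium-hydrogen exchanger Slc9a3, the cotransporters Slc12a1 and Slc12a3, the potassium channel Kcnj1, the epithelial sodium channel (ENaC) subunits Scnn1a, Scnn1b and Scnn1g, the mineralocorticoid receptor Nr3c2, the enzyme Hsd11b2 and the kinase Sgk1. All 10 symbols were found, each on a single probeset of the array. RNA from a piece of kidney was hybridized to an Affymetrix rat gene array for each of 12 male Sprague-Dawley rats, 3 per group. W0, W1 and W5 rats had received L-NAME, an inhibitor of nitric oxide synthesis, at 15 mg/kg per day, with NaCl at 6 g/L added to the drinking water, and had all passed a urinary protein excretion rate (UPER) of 1 g/mmol. W0 rats were killed at that peak of renal damage, W1 rats 1 week and W5 rats 5 weeks after L-NAME was stopped. CTL rats received no L-NAME and were of the same age. The sources used here do not say whether CTL rats drank NaCl, nor whether NaCl was stopped with L-NAME, so the effects of the drug and of the salt cannot be told apart in any comparison below. Because L-NAME was given until proteinuria passed the limit, the length of treatment could differ between rats.

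Sodium leaves the tubular fluid by a different route in each stretch of the nephron. In the proximal tubule, and also in the thick ascending limb, Slc9a3 (NHE3) takes up sodium in exchange for hydrogen ions. In the thick ascending limb Slc12a1 (NKCC2, the target of loop diuretics) takes up sodium, potassium and chloride together, and Kcnj1 (ROMK) lets potassium return to the lumen. The distal convoluted tubule uses Slc12a3 (NCC, the target of thiazides), and principal cells of the collecting duct use ENaC. Aldosterone acts through Nr3c2 in the distal nephron, where Hsd11b2 inactivates glucocorticoids that would otherwise occupy the same receptor. Sgk1 is an early target of both the mineralocorticoid and the glucocorticoid receptor, and keeps ENaC at the cell surface by restraining the ubiquitin ligase Nedd4l.

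Levels are given as log2 values of the robust multi-array average (RMA), so that a difference of 1 is a 2-fold change, and a level is compared only with the level of the same gene on other arrays. The array medians lay between 5.75 and 5.92 and arrays of the same group correlated at 0.982 to 0.993 over all genes. Slc34a1, the phosphate transporter that marks the proximal tubule of the kidney, was at 10.88 or higher on every array. On the second principal component (14.7% of the variance) W0 replicate 1 lay at 31.7 and W1 replicate 1 at -20.4, while the other 10 arrays lay between -10.9 and 11.4. W0 replicate 1 had the highest level of the 12 arrays for Sgk1 and Scnn1a, and the lowest for Slc12a1, Scnn1b, Kcnj1 and Hsd11b2. Results that rest on this array are therefore also given without it.

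At the peak of the disease 2 of the 10 genes passed the test, in opposite directions: Slc9a3 was 2.11-fold lower and Sgk1 2.11-fold higher in W0 than in CTL kidneys. The test was limma with Benjamini-Hochberg adjustment over all genes, at an adjusted p under 0.05, and called 9.4% of all genes in W0 against CTL (4.99% higher and 4.41% lower), so a count of 2 in 10 does not set these genes apart as a list. Their median log2 change was -0.20, against -0.01 for all genes. At an unadjusted p under 0.05 the count was 5 of 10, beside 22.6% of all genes. The 3 W0 and the 3 CTL arrays did not overlap for 3 of the 10 (26.5% of all genes), namely Slc9a3 and Nr3c2, lower at W0, and Sgk1, higher at W0. In W1 against CTL none of the 10 passed, with 3.02% of all genes called, and 1 had an unadjusted p under 0.05 (16% of all genes). In W5 against CTL none passed, but there limma called 0 of the 18166 genes (0%), while 7.34% of all genes and 0 of the 10 had an unadjusted p under 0.05. RNA of a piece of whole kidney was measured, so fewer cells of a type and less RNA per cell cannot be told apart. The share of cortex and medulla in the piece could also differ between arrays, and its part in these changes was not tested.

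**Figure D1:**
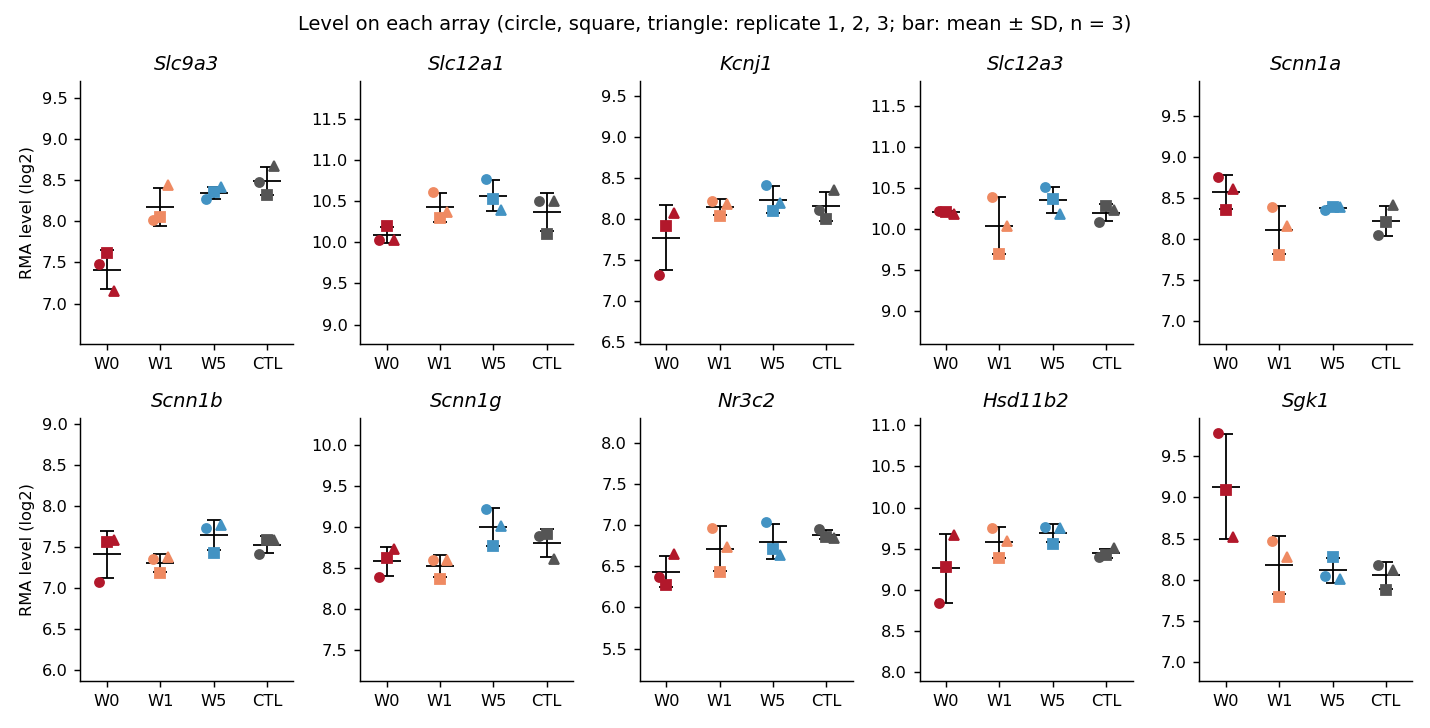
RMA level (log2, vertical axis, spanning the same 3.2 log2 units in every panel) of each of the 10 genes on each array of W0, W1, W5 and CTL. Markers are arrays and bars the mean ± SD of 3 rats. Slc9a3 at W0 lies below every other array and Sgk1 at W0 above every other array.

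Slc9a3 had the smallest p of the 10 over the 4 groups. Its level was 7.48, 7.61 and 7.16 in W0 rats, 8.02, 8.05 and 8.44 in W1 rats, 8.27, 8.36 and 8.41 in W5 rats, and 8.48, 8.32 and 8.67 in CTL rats. Every W0 kidney thus lay below every kidney of the other groups, the closest being 7.61 at W0 and 8.02 at W1. The change in W0 against CTL was -1.08 (SE 0.15, adjusted p = 0.000557), a level 2.11-fold lower. In W1 against CTL the change was -0.32, with a 95% confidence interval of -0.64 to -0.001 and an adjusted p of 0.31. In W5 against CTL it was -0.14 (interval -0.47 to 0.18, adjusted p = 0.858). Over the 4 groups the moderated F was 20.5 (adjusted p = 0.0022), rank 190 of 18166 genes, where 6.72% of genes passed, and an exact permutation of the ordinary F over all 15400 splits of the arrays gave p = 0.00312. Without W0 replicate 1 the W0 change was -1.11 and remained called (adjusted p = 0.00124).

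Some markers of other cells and of the segments that use Slc9a3 also changed at W0. Of 7 proximal tubule markers 4 were lower at W0, among them Miox (-1.05), Slc22a6 (-0.93) and Lrp2 (-0.76), the endocytic receptor megalin, and their summed level (log2) ran from 12.71 to 12.96 in W0 rats and from 13.49 to 13.56 in CTL rats. Of 5 fibroblast markers all 5 were higher, with summed levels of 9.98 to 10.52 in W0 rats and 9.35 to 9.46 in CTL rats, a count that was 2 without W0 replicate 3 and 3 without CTL replicate 2 or with only the 2 groups fitted. Of 7 macrophage markers 5 were higher (9.61 to 10.35 in W0 rats, 8.98 to 9.14 in CTL rats). Not all markers went these ways. Cubn of the proximal tubule list changed by 0.22 (adjusted p = 0.302), with every W0 array above every CTL array. Adgre1 of the macrophage list changed by -0.35 (adjusted p = 0.451). Both were picked after their values were seen. The part of these markers in the fall of Slc9a3 was not tested. Of 14 other proximal sodium transport genes measured, 0 were called higher and 2 called lower at W0. Their changes were negative in 11 and positive in 3, with a median of -0.21. Those called lower were Slc34a1 (-0.74, adjusted p = 0.00744), the main sodium-phosphate cotransporter of the proximal tubule, and Pdzk1 (-0.78, adjusted p = 0.00257), a scaffold protein of its brush border. Slc34a3, picked after its values were seen, was 7.06, 7.46 and 7.10 in W0 rats, against 8.34, 7.88 and 8.02 in CTL rats. It was not called, although these groups did not overlap. Nherf1, the scaffold that binds Slc9a3 itself, was also picked after its values were seen. It changed by -0.40 and missed the threshold (adjusted p = 0.0547). The glucose transporter Slc5a2 (-0.10, interval -1.05 to 0.85) and the basolateral bicarbonate cotransporter Slc4a4 (0.53, adjusted p = 0.162), 2 genes picked after their values were seen, did not pass either.

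Sgk1 was the gene of the 10 that rose. Its level was 9.79, 9.09 and 8.52 in W0 rats, 8.47, 7.79 and 8.28 in W1 rats, 8.04, 8.28 and 8.01 in W5 rats, and 8.17, 7.87 and 8.12 in CTL rats. All 3 W0 kidneys lay above the other 9, but they spread over more than 1 log2 unit, and W0 replicate 3 (8.52) lay just above W1 replicate 1 (8.47). The change in W0 against CTL was 1.08 (SE 0.25, adjusted p = 0.0156), a 2.11-fold higher level. It was 0.75 without W0 replicate 1 and still called, but the call was lost without CTL replicate 2 (adjusted p = 0.0659) and when only W0 and CTL arrays were fitted (adjusted p = 0.051). The change was 0.13 (interval -0.42 to 0.67) in W1 against CTL and 0.06 (interval -0.49 to 0.60) in W5 against CTL. Over the 4 groups the moderated F was 8.16 (adjusted p = 0.0389, rank 1051), and the exact permutation gave p = 0.0209. That call was lost in 9 of the 12 fits that left out an array, with adjusted p up to 0.129 without W0 replicate 1.

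The promoter windows of these 2 genes are shown because they are the 2 that passed the test and because Sgk1 is a target of steroid receptors. RefSeq promoter windows (build GRCr8, 250 bases before and 50 after a transcription start) were on hand for 7 of the 10 genes, in 11 windows. Scnn1a, Nr3c2 and Hsd11b2 had none in the table. All 4 windows below are read 5′ to 3′ on the minus strand of chromosome 1. Capitals mark the searched motifs, each in both orientations: the GC box bound by Sp1 (GGGCGG or CCGCCC), the TATA box (TATAAA or TTTATA) and the half-site of the steroid response element (AGAACA or TGTTCT).
Slc9a3, chr1:30995953-30996252: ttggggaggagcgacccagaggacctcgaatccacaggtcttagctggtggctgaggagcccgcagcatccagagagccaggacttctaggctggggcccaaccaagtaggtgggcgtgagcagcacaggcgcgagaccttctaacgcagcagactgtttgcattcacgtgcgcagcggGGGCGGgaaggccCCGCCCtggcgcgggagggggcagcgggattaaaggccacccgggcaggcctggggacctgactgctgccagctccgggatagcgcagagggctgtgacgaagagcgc
Sgk1 window 1, chr1:24804782-24805081: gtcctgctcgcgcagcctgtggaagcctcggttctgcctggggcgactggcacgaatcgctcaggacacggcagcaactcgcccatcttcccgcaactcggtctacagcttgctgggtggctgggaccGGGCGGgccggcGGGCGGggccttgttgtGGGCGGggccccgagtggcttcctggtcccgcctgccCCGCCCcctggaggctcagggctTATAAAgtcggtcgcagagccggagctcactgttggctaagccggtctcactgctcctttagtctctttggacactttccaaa
Sgk1 window 2, chr1:24805521-24805820: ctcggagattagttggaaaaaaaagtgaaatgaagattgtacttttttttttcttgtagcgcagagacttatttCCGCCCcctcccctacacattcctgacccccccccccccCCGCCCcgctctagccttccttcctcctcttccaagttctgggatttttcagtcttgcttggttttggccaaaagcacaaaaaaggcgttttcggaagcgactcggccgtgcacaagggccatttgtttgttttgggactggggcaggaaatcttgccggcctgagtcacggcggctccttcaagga
Sgk1 window 3, chr1:24807182-24807481: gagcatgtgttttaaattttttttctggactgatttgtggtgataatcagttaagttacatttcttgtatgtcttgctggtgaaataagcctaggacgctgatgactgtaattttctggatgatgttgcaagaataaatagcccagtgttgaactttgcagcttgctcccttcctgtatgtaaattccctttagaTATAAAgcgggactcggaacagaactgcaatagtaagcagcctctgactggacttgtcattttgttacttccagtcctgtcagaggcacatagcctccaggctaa
The Slc9a3 window held 2 GC boxes. The Sgk1 windows held 4, 2 and 0 GC boxes in the order shown, and windows 1 and 3 held a TATA box. GC boxes occurred in 33.1% and TATA boxes in 14.2% of the 33469 windows of the table. No half-site and no full element (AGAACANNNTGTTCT) was in these 4 windows, whereas 20.7% of all windows held a half-site and 0.0149% the full element. Half-sites were found in 1 of 2 Slc12a1 windows and in both Kcnj1 windows. These are matches of letters in 300 bases and say nothing of sites farther away.

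In the thick ascending limb neither Slc12a1 nor Kcnj1 passed the test at W0, although both were below control on average. The Slc12a1 level was 10.03, 10.20 and 10.03 in W0 rats, 10.62, 10.29 and 10.36 in W1 rats, 10.77, 10.53 and 10.40 in W5 rats, and 10.50, 10.11 and 10.50 in CTL rats. The W0 arrays sat within or below the range of CTL, which its replicate 2 widened, and below all arrays of W1 and W5. The change in W0 against CTL was -0.28 (interval -0.59 to 0.03, adjusted p = 0.276). Kcnj1 was 7.32, 7.92 and 8.08 in W0 rats, 8.22, 8.04 and 8.19 in W1 rats, 8.42, 8.10 and 8.19 in W5 rats, and 8.11, 8.004 and 8.35 in CTL rats. Its W0 mean rested largely on replicate 1, which was the lowest of all arrays, while replicate 3 lay inside the range of CTL. The change was -0.38 (adjusted p = 0.207) and -0.16 without that array.

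Other genes of this segment did pass. Of 7 thick ascending limb markers 5 were lower at W0 and 0 higher, with a median change of -0.74, and their summed level (log2) was 11.79 to 12.27 in W0 rats and 12.70 to 12.84 in CTL rats. Without CTL replicate 1 the count was 3. The named genes were Egf (-1.58, adjusted p = 0.0088), Tmem207 (-0.95, adjusted p = 0.0116) and Cldn10 (-0.83, adjusted p = 0.000949), a claudin of the paracellular sodium path. The basolateral potassium channel Kcnj10, which pairs with Kcnj16 in the distal nephron, fell by 0.83 (adjusted p = 0.00257), and was 6.88, 6.77 and 6.83 in W0 rats, against 7.55, 7.79 and 7.64 in CTL rats. Slc9a3 was also set against Slc12a1 within each array. The log2 ratio of the 2 was -2.55, -2.59 and -2.88 in W0 rats, against -2.02, -1.78 and -1.83 in CTL rats. Its level depends on the probes, so only its differences between groups have a meaning. All W0 arrays lay below all CTL arrays, by 0.80 on average, but the exact permutation over the 4 groups gave p = 0.0271, which was 0.135 after adjustment over the 5 ratios tested.

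Slc12a3, the transporter of the distal convoluted tubule, had nearly the same mean at W0 as in CTL. Its level was 10.22, 10.21 and 10.18 in W0 rats, 10.40, 9.70 and 10.03 in W1 rats, 10.51, 10.37 and 10.19 in W5 rats, and 10.09, 10.29 and 10.23 in CTL rats. The W0 arrays agreed within 0.04 and lay inside the range of CTL. The change was 0.00 with an interval of -0.33 to 0.33, which leaves out a change as large as that of Slc9a3. In W1 the arrays spread most (SD 0.35), and the change against CTL was -0.16 (adjusted p = 0.689). Of 7 other markers of this segment 1 was lower at W0, the transcription factor Emx1 (-0.67, adjusted p = 0.0146), and 0 higher. Of 8 measured genes of the WNK-SPAK pathway, which phosphorylates Slc12a3 and Slc12a1, Oxsr1 rose by 0.38 (adjusted p = 0.0269) and the phosphatase inhibitor Ppp1r1a fell by 0.90 (adjusted p = 0.00252). Their median was -0.28. Stk39, which encodes SPAK, changed by -0.32 (adjusted p = 0.1), a gene picked after its values were seen.

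**Figure D2:**
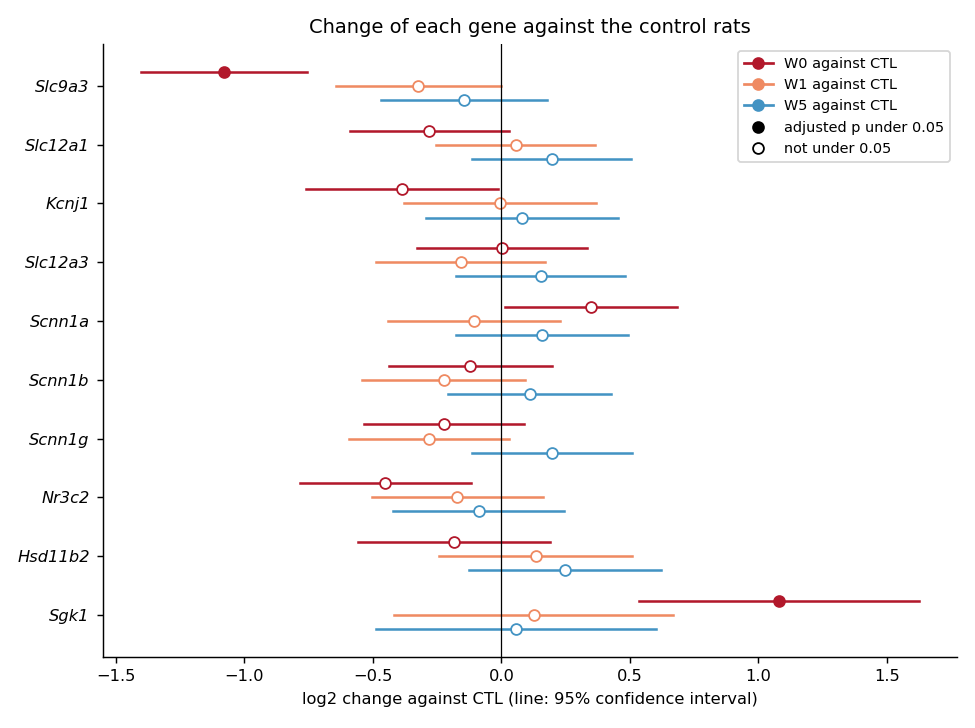
log2 change against CTL (horizontal axis) of each gene in W0, W1 and W5 with its 95% confidence interval from limma. Filled points passed an adjusted p of 0.05. Only Slc9a3 (-1.08) and Sgk1 (1.08) at W0 are filled.

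The ENaC subunits did not pass the test in any group, and their W0 means lay on different sides of control. Scnn1a, the alpha subunit and a transcriptional target of aldosterone in the collecting duct, was 8.75, 8.35 and 8.61 in W0 rats, 8.39, 7.81 and 8.16 in W1 rats, 8.35, 8.39 and 8.39 in W5 rats, and 8.05, 8.21 and 8.41 in CTL rats. The groups overlapped through W0 replicate 2 and CTL replicate 3. The change was 0.35 (interval 0.02 to 0.68, adjusted p = 0.2) in W0 against CTL. Scnn1b, the beta subunit, was 7.08, 7.56 and 7.59 in W0 rats, 7.35, 7.18 and 7.38 in W1 rats, 7.73, 7.43 and 7.76 in W5 rats, and 7.41, 7.59 and 7.58 in CTL rats. Scnn1g, the gamma subunit, was 8.39, 8.63 and 8.73 in W0 rats, 8.60, 8.37 and 8.60 in W1 rats, 9.22, 8.77 and 9.01 in W5 rats, and 8.89, 8.91 and 8.61 in CTL rats. W0 replicate 1 was low for both, and the other W0 arrays overlapped with CTL. The W0 changes were -0.12 (interval -0.44 to 0.20) for Scnn1b and -0.22 (interval -0.53 to 0.09) for Scnn1g, and 0.044 and -0.13 without that array. W1 and CTL arrays did not overlap for 2 of the 10 genes, a share no larger than the 22.1% of all genes. These were Scnn1b (-0.22, adjusted p = 0.515) and Scnn1g (-0.28, adjusted p = 0.374). Every W1 array lay below every CTL array in both, and neither passed.

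Whether the subunits changed unequally was asked with ratios taken within each array. The log2 ratio of Scnn1b to Scnn1a was -1.68, -0.79 and -1.02 in W0 rats and -0.63, -0.62 and -0.83 in CTL rats, and the groups overlapped. That of Scnn1g to Scnn1a was -0.36, 0.28 and 0.12 in W0 rats and 0.84, 0.70 and 0.20 in CTL rats, again with overlap. The mean differences were -0.47 and -0.57, with W0 replicate 1 the lowest array in both. Without that array they were -0.21 and -0.38. Over the 4 groups exact permutation gave p = 0.168 for Scnn1b over Scnn1a and p = 0.104 for Scnn1g over Scnn1a, or 0.211 and 0.173 after adjustment over the 5 ratios. Scnn1g and Scnn1b, which lie next to each other on the chromosome, had a W0 difference in their ratio of -0.10, or -0.17 without W0 replicate 1 (exact p = 0.461 over the 4 groups with all arrays). Across the 12 arrays their levels correlated at 0.82, as a description only, since the arrays share groups.

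**Figure D3:**
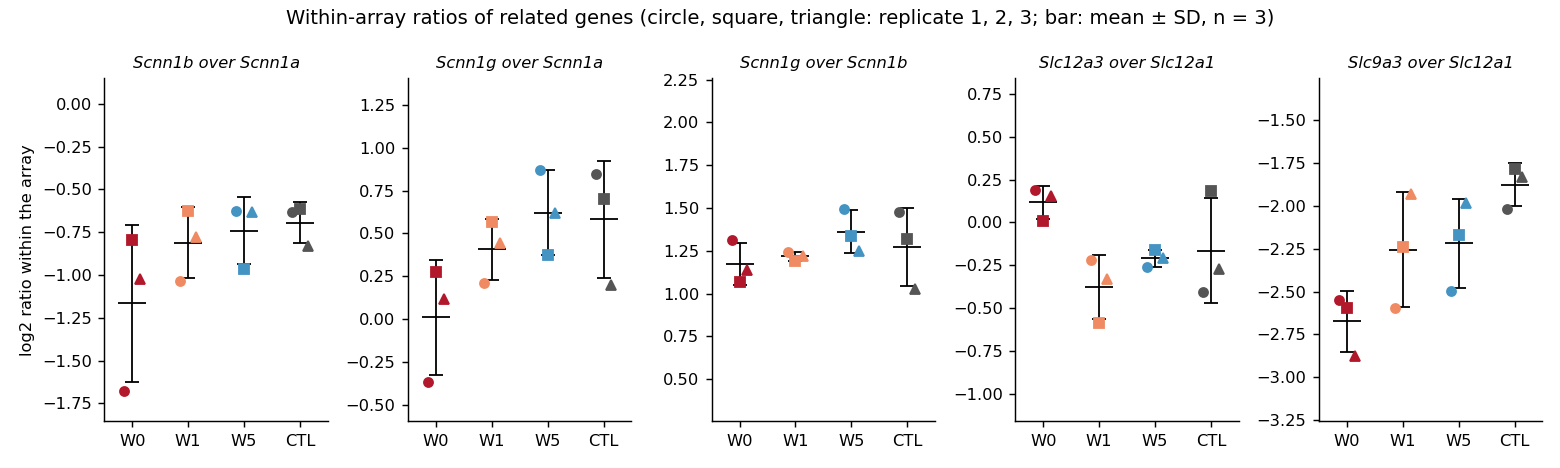
log2 ratio of 5 pairs of genes within each array (vertical axis, 2 log2 units in every panel) in W0, W1, W5 and CTL, with the mean ± SD of 3 rats. In the panel of Slc9a3 over Slc12a1 the W0 arrays lie below all CTL arrays, and in the other panels W0 and CTL overlap.

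Among the genes that act on ENaC, 1 of 10 measured was higher and 1 lower at W0, with a median change of 0.13. Both are membrane proteases of the activating cascade: St14 (matriptase) rose by 0.60 (adjusted p = 0.0239) and Prss8 (prostasin) fell by 0.55 (adjusted p = 0.0309). Nedd4l, the ligase that removes ENaC from the membrane, was picked after its values were seen. It was 9.18, 8.89 and 9.04 in W0 rats, against 8.63, 8.75 and 8.61 in CTL rats. These groups did not overlap, but the change of 0.37 missed the threshold (adjusted p = 0.0533). At W1 the protease inhibitor Serpine2 was the 1 gene of this list that passed (0.85, adjusted p = 0.0171). Of 5 sodium pump genes measured, the regulator Fxyd5 rose at W0 (0.72, adjusted p = 0.0446) and at W1 (0.90, adjusted p = 0.0321). Its W0 call was lost in 11 of 12 fits that left out an array, among them that without W0 replicate 3 (0.45, adjusted p = 0.163). The beta subunit Atp1b1 (0.26, adjusted p = 0.183) and the kidney regulator Fxyd2 (-0.35, adjusted p = 0.111) did not pass, both picked after their values were seen. Of 9 other exchangers and channels 3 were called higher at W0 and 0 lower. They were the bicarbonate transporters Slc4a7 (0.90, adjusted p = 0.0165) and Slc4a8 (0.48, adjusted p = 0.0116) and the large-conductance potassium channel Kcnma1 (0.81, adjusted p = 0.00301). Principal cell markers, the cells of ENaC, had 1 of 6 called higher, the water channel Aqp3 (0.63, adjusted p = 0.0449), which lost its call in 10 of 12 such fits. Their changes were mixed, 4 positive and 2 negative. The largest was that of Avpr2 (-0.72, adjusted p = 0.116), picked after its values were seen. For each principal cell marker W0 replicate 1 was the lowest of the W0 arrays, which was also seen afterwards. Aqp2, for example, was 9.47 there, against 10.64 and 10.15 in W0 replicates 2 and 3. Of 7 intercalated cell markers 2 were lower, the proton pump subunits Atp6v1b1 (-0.47, adjusted p = 0.0475) and Atp6v0a4 (-0.42, adjusted p = 0.0375).

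The receptor gene Nr3c2 was below control in every W0 kidney. Its level was 6.38, 6.28 and 6.64 in W0 rats, 6.97, 6.43 and 6.74 in W1 rats, 7.04, 6.71 and 6.64 in W5 rats, and 6.95, 6.86 and 6.85 in CTL rats. The W0 and CTL arrays did not overlap. The change of -0.45 (interval -0.78 to -0.12) missed the threshold after adjustment (adjusted p = 0.0899). In W1 and W5 the arrays overlapped with both W0 and CTL, with changes of -0.17 and -0.09 against CTL. Hsd11b2 was 8.84, 9.28 and 9.67 in W0 rats, 9.75, 9.38 and 9.59 in W1 rats, 9.76, 9.56 and 9.75 in W5 rats, and 9.40, 9.43 and 9.51 in CTL rats. W0 arrays spread over 0.83 log2 units, from the lowest to the ninth of the 12 arrays. The mean change of -0.18 (interval -0.56 to 0.19) became 0.03 without W0 replicate 1. At W5 every array lay above every CTL array, the only such gene of the 10 (1 of 10, beside 14.4% of all genes), by 0.25 (adjusted p = 0.769). Of 6 measured genes of steroid receptors, their partners and glucocorticoid activation, 1 was lower at W0. It was Hsd11b1, the enzyme that regenerates active glucocorticoid, which fell by 0.50 (adjusted p = 0.0175). Its level was 9.64, 9.46 and 9.35 in W0 rats, against 9.82, 9.97 and 10.15 in CTL rats. The glucocorticoid receptor Nr3c1, picked after its values were seen, changed by -0.24 (adjusted p = 0.314).

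On a list of genes known to respond to corticosteroids, 9 changes were positive and 2 negative at W0. Of 11 on the list, all measured, 5 were called higher and 0 lower at W0, beside 4.99% of all genes called higher, and the median change was 0.48. The list was chosen with earlier results of these data known, so its counts are a description and no independent support. The largest was Zbtb16 (1.81, adjusted p = 0.0181), followed by Fkbp5 (1.51, adjusted p = 0.0113), which restrains steroid receptor signalling, and Edn1 (1.15, adjusted p = 0.00786), the gene of endothelin-1. Ddit4 (0.76) and Cnksr3 (0.46), a scaffold that aldosterone induces in the collecting duct, also rose. These 2 complete the 5 called and were named after their values were seen. Fkbp5 was 8.74, 8.34 and 6.94 in W0 rats, against 6.47, 6.88 and 6.15 in CTL rats, and Zbtb16 was 8.64, 7.19 and 5.93 in W0 rats, against 5.39, 5.42 and 5.51 in CTL rats. Replicate 1 was highest and replicate 3 nearest to control in both, as for Sgk1, and the W0 SD was 0.95 for Fkbp5 and 1.36 for Zbtb16. This order of the W0 rats was found in 8 of the 11 genes, beside 18% of all genes. Per1, a clock gene that glucocorticoids induce, was 8.09, 7.64 and 6.59 in W0 rats, against 6.62, 6.62 and 6.21 in CTL rats, and did not pass (0.96, adjusted p = 0.0672). Klf9 was 8.46, 7.67 and 7.13 in W0 rats, against 8.06, 8.10 and 8.02 in CTL rats, so that rats of the same group lay on both sides of control. Per1 and Klf9 were picked after their values were seen. Without W0 replicate 1 the changes of Zbtb16 (1.12) and Fkbp5 (1.14) were smaller, in the opposite order and still called, and the count of the list was 3. The count was 3 with median centring, 2 without any of the CTL replicates 1, 2 and 3, and 1 with W0 and CTL arrays alone. Zbtb16 lost its call without CTL replicate 1 (adjusted p = 0.0561) or CTL replicate 2 (adjusted p = 0.0569), and Fkbp5 without CTL replicate 3 (adjusted p = 0.0517). Against CTL, 0 of the 11 passed at W1 and 0 at W5. Adrenal cortex markers had a mean log2 level of 4.48 to 4.85 over the arrays, and 0 of 7 passed at W0. Such a level depends on the probes and does not show whether adrenal tissue was present.

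**Figure D4:**
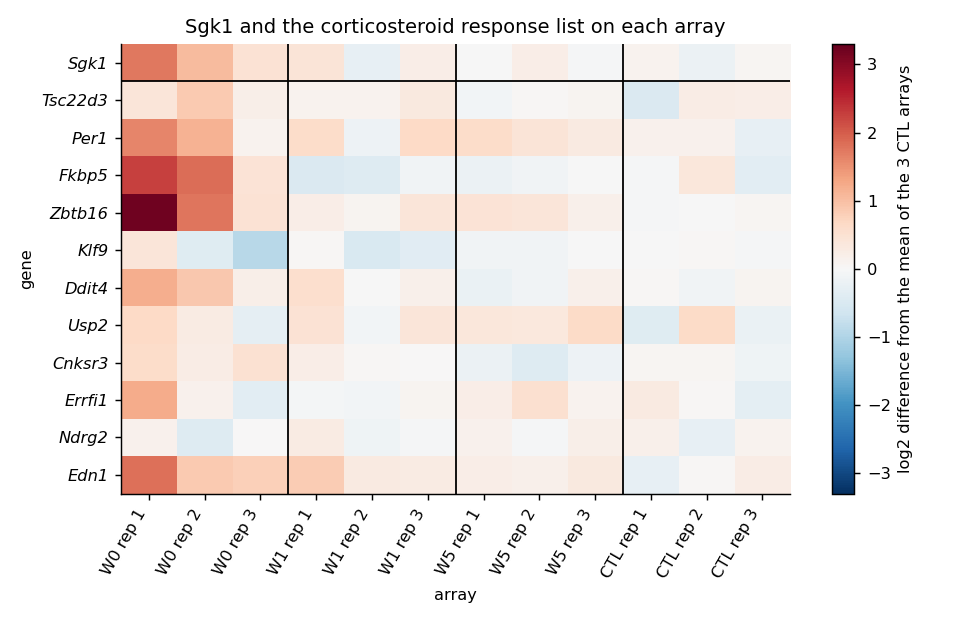
log2 difference from the mean of the 3 CTL arrays (colour) of Sgk1 and the 11 genes of the corticosteroid list (rows) on each array (columns, W0, W1, W5, CTL). The strongest colours are in W0 replicates 1 and 2, while W0 replicate 3 is nearer to control for Zbtb16, Fkbp5 and Per1.

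Several calls of the list genes at W0 were lost when an array was left out. Of these fits, 6 of 12 lost the call of Oxsr1 (lost without any of the W0 and CTL arrays), 4 each those of St14 and Prss8, 9 that of Atp6v1b1, 6 that of Atp6v0a4, and 3 each those of Hsd11b1, Slc4a7, Tmem207, Cidea and the fibroblast marker Col1a2. The call of Slc4a8 was lost without CTL replicate 3, that of Emx1 without CTL replicate 1, and that of the fibroblast marker Dcn in 1 fit. Ppp1r1a, Kcnj10, Slc34a1, Pdzk1, Kcnma1, Edn1, Egf and Cldn10 kept theirs in all 12. Of the remaining marker lists, 4 of 8 tubular injury markers were higher, led by Havcr1 (5.17), Spp1 (2.66) and Timp1 (2.45), as was 1 of 4 adipose markers (Cidea, 1.06). W0 replicate 1 had the highest level of all arrays for Cidea (6.96), Adipoq (6.79) and Ucp1 (6.06), which was at most 4.61 elsewhere. For Plin1 it was 5.62, below CTL replicate 1 (5.66). These levels were looked at after the values were seen. The part of adipose RNA in other changes of this array was not tested. None of 3 podocyte, 3 endothelial and 6 lymphocyte markers passed in W0 against CTL.

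**Figure D5:**
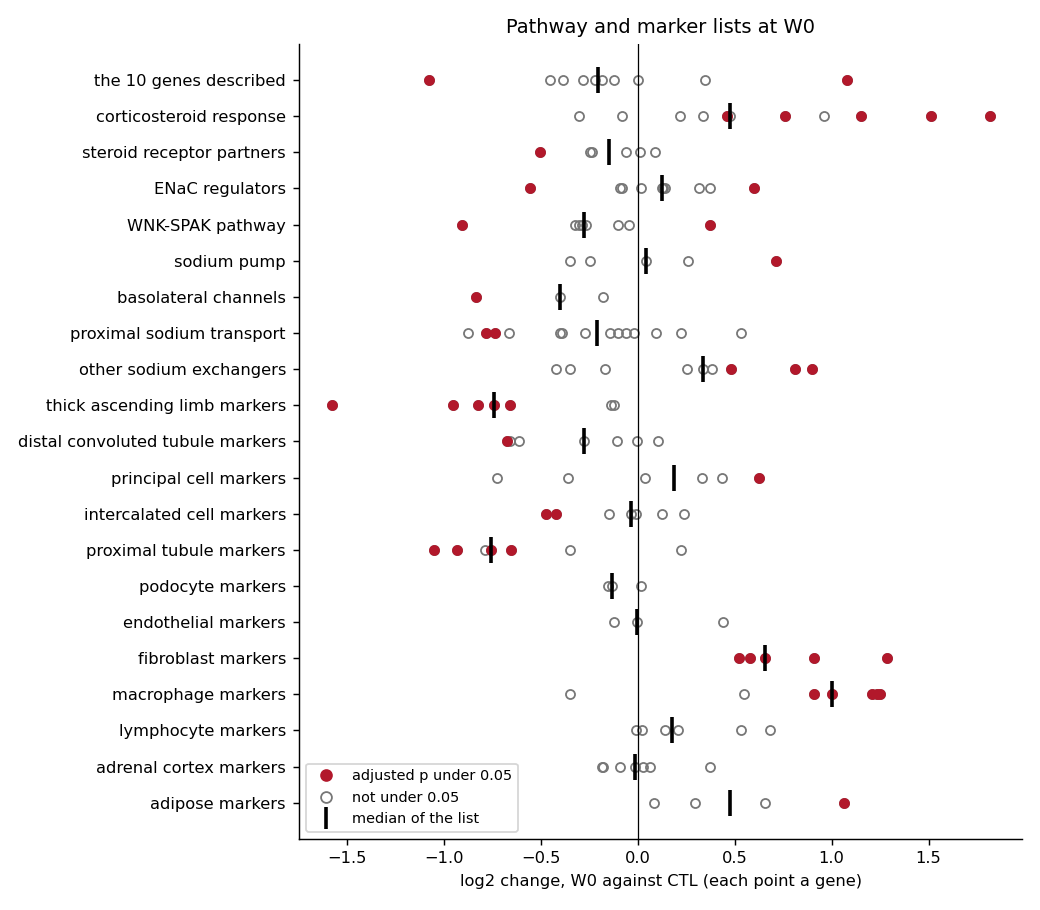
log2 change in W0 against CTL (horizontal axis) of each gene of the pathway and marker lists (rows), with the list's median as a bar and genes that passed an adjusted p of 0.05 filled. Tubular injury markers are left out because Havcr1 (5.17) exceeds the axis. The medians of thick ascending limb (-0.74) and proximal tubule markers (-0.76) lie to the left, those of fibroblast (0.66) and macrophage markers (1.00) to the right.

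The recovery was compared directly between groups. In W5 against W0, where 5.04% of all genes were called (1.88% higher and 3.17% lower), 2 of the 10 passed: Slc9a3 was higher by 0.93 (SE 0.15, adjusted p = 0.00273) and Sgk1 lower by 1.02 (SE 0.25, adjusted p = 0.0326). The Sgk1 call was lost without W0 replicate 1 (-0.69, adjusted p = 0.0813), without W0 replicate 2 (adjusted p = 0.0732), without any of the W5 replicates 1, 2 and 3 (adjusted p = 0.0978, 0.0748 and 0.0945), and when only W5 and W0 were fitted (adjusted p = 0.0921). W5 and W0 did not overlap for 5 of the 10 (23% of all genes), Slc9a3, Slc12a1, Kcnj1 and Scnn1g being higher and Sgk1 lower at W5. The median change of the 10 was 0.39, against 0.00 for all genes. Slc12a1, higher by 0.48, came close to the threshold (adjusted p = 0.0783) and passed it when arrays were centred on their medians (adjusted p = 0.0467) or variances were fitted with a trend (adjusted p = 0.0494). The segment markers moved the same way, with 5 of 7 thick ascending limb markers and 4 of 7 proximal tubule markers higher at W5 than at W0, and 4 of 11 corticosteroid genes lower.

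In W1 against W0, where 0.528% of all genes were called, 1 of the 10 passed. Slc9a3 was higher by 0.76 (SE 0.15, adjusted p = 0.0407), with every W1 array above every W0 array. This call was not stable: it was lost when the arrays were centred on their medians (adjusted p = 0.0661), when only W1 and W0 were fitted (adjusted p = 0.191) and in 10 of the 12 fits that left out an array. It was kept only without CTL replicate 3 or W0 replicate 2, and without W1 replicate 3 the adjusted p was 0.183. Sgk1 was lower by 0.95 and did not pass (adjusted p = 0.132), except without W0 replicate 3 (adjusted p = 0.0173). These 2 genes and Slc12a1, higher at W1, were the 3 of the 10 whose W1 and W0 arrays did not overlap (14% of all genes). In W5 against W1 none of the 10 passed, with 0.286% of all genes called. The only genes of the 10 whose arrays did not overlap there (2 of 10, beside 17.7% of all genes) were Scnn1b and Scnn1g, both higher at W5, by 0.33 (adjusted p = 0.417) and 0.48 (adjusted p = 0.195). Each of these comparisons shares its W0, W1 or W5 arrays with others, so their values are not independent of each other.

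The genes whose levels were most like those of Slc9a3 over the 12 arrays were Oxct1 (Pearson r = 0.971), Pfn3 (0.969), Pdpr (0.967), Phyhd1 (0.965) and Hykk (0.964). When group means were taken out first, the nearest were Ubqln1 (0.926), Slc47a1 (0.918), a cation exporter of the proximal tubule, Pglyrp4 (0.916), Mlip (0.912) and Caap1 (0.906), so that no gene was in both sets. Within the 10, Kcnj1 and Hsd11b2 had the highest correlation, 0.89 over the arrays and 0.88 after taking out group means, with W0 replicate 1 lowest in both genes. Kcnj1 and Sgk1 correlated at -0.79 over the arrays and at -0.58 after taking out group means, with W0 replicate 1 lowest for Kcnj1 and highest for Sgk1. These correlations describe 12 arrays in 4 groups that share a normalization and are given without a test.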

How the data were processed

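One array was hybridized per rat, with 12 rats in 4 groups (W0, W1, W5 and CTL, n = 3 each). Replicates are separate animals, as the methods describe 1 kidney per animal. The deposited table holds log2 values of 20944 probesets, made by the authors from the fluorescence by RMA. Software version, scan dates and batches are not given in the sources used here, so no batch could be examined. RMA equalizes the distributions of the arrays, so changes are relative to the whole array. The number of arrays limits the precision. The deposited values run from 1.52 to 12.88 and were used as they are.

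Probesets with a single symbol (18510) were kept, 575 with several and 1859 with none were left out, and where a gene had several the brightest on average stood for it, giving 18166 genes. Group differences came from limma 3.58.1 (R 4.3.3), in a fit of all 4 groups with empirical Bayes variances (13.84 total degrees of freedom). P was adjusted by the Benjamini-Hochberg method over the 18166 genes, with a threshold of 0.05. Intervals are at 95% and unadjusted for the number of genes. Exact permutation tests are two-sided for pairs of groups, where 3 against 3 cannot go below 0.1, and take all splits for the F statistic. The code was tested on simulated data. The 10 genes, the lists and the tests were chosen with earlier results of these data known. Of the listed genes 14 were not analysed here, and 1 was matched by synonym (Nherf1). From each list, up to 3 genes called in W0 against CTL with the largest change were named, and other names are marked where they were picked after their values were seen, save markers and list genes given to describe a call in another comparison. Promoter windows came from the RefSeq table on hand.

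Alternatives were the mean of all probesets of a gene (the same for the 10 genes, each on a single probeset), median centring, repeated quantile normalization, leaving out genes whose highest group mean was under 5, variances with a trend or robust, a fit of only the 2 groups compared, the replicate number as a block, a 2-fold rule at unadjusted p, and leaving out each array. Leaving out W0 replicate 1 and W1 replicate 1 together was added after seeing the data.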

Additional observations from a re-analysis of the deposited data

Results flagged for a closer look

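The change of Slc9a3 against CTL differed between time points, by a direct test of W1 against W0 (0.76, adjusted p = 0.0407) and of W5 against W0 (0.93, adjusted p = 0.00273) in limma. The first of these calls was lost in 10 of 12 fits that left out an array, and the second was kept in all 12. The change of Sgk1 differed between W5 and W0 (-1.02, adjusted p = 0.0326), a call that was lost in 5 of these 12 fits. With 3 arrays per group no array was tested as an outlier within its group. W0 replicate 1 and W1 replicate 1 were set apart only by their place on the second principal component.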

How the results depend on the processing

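The fall of Slc9a3 at W0 and its W5 against W0 difference kept their direction and call in every refit run, with W0 changes of -1.18 to -0.95 when an array was left out. The 2-fold rule kept the first and missed the second (0.93). The count of the 10 genes called in W0 against CTL was 1 to 2 when an array was left out and 1 with only the 2 groups fitted. In W1 against W0 it was 0 to 1 when an array was left out and 0 with median centring, only the 2 groups, the replicate block, the 2-fold rule or both arrays apart on the second component left out. In W5 against W0 it was 1 to 3 when an array was left out (Hsd11b2 passing without W0 replicate 3, adjusted p = 0.0437) and 1 with only the 2 groups, the 2-fold rule or both arrays left out. Counts over all genes (1708, 548, 0, 96, 916 and 52 in W0, W1 and W5 against CTL, W1 and W5 against W0, and W5 against W1) ran from 1070 to 1789, 165 to 745, 0 to 1, 22 to 169, 407 to 982 and 3 to 152 when an array was left out. The 2-fold rule gave 413, 183, 13 and 265 in W0, W1 and W5 against CTL and W5 against W0. Only the 2 groups gave 19, 537 and 80 in W1 and W5 against W0 and W5 against W1. Without low genes there were 1, 152 and 89 in W5 against CTL, W1 against W0 and W5 against W1, with a trend 1 and 82 in W5 against CTL and W5 against W1, and with both arrays left out 58 in W1 against W0. Median centring and repeated quantile normalization gave 30 and 32 in W5 against W1. Centring moved the share of higher calls to 55.1% in W1 against CTL and 30.7% in W1 against W0, against 73.9% and 42.7% as deposited.

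The sources used here do not say whether the replicate numbers pair the rats. Same-numbered arrays correlated at -0.04 to 0.17 in their deviations from the group means, which cannot decide it. With the replicate number as a block, Slc9a3 in W1 against W0 lost its call (adjusted p = 0.0618) and no other call of the 10 genes changed, while 1860 genes were called in W0 against CTL.

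Signs turned only for changes that were not called, the largest being that of Hsd11b2 in W0 against CTL (-0.18). With centring the change of Slc12a1 in W1 against CTL was -0.028, of Slc12a3 in W0 against CTL -0.029 and of Sgk1 in W5 against W1 0.014, the last being 0.024 with repeated quantile normalization. With both arrays left out they were -0.041, -0.0044 and 0.079, and Scnn1b and Hsd11b2 in W0 against CTL were 0.044 and 0.0295 and Sgk1 in W1 against CTL -0.021. When an array was left out, values in W0 against CTL ran from -0.39 to 0.0295 for Hsd11b2, from -0.21 to 0.044 for Scnn1b and from -0.054 to 0.044 for Slc12a3. In W1 against CTL they ran from -0.082 to 0.091 for Kcnj1, from -0.24 to 0.049 for Scnn1a, from -0.021 to 0.32 for Sgk1, from -0.075 to 0.12 for Slc12a1 and from -0.33 to 0.012 for Slc12a3. In W5 against CTL they ran from -0.011 to 0.18 for Kcnj1 and from -0.034 to 0.12 for Sgk1. In W1 against W0 they ran from -0.15 to 0.018 for Scnn1g and from -0.34 to 0.0105 for Slc12a3, and in W5 against W1 from -0.0046 to 0.15 for Kcnj1, from -0.059 to 0.21 for Nr3c2 and from -0.26 to 0.079 for Sgk1. The F of the ratio of Slc12a3 to Slc12a1, 3.597, ran from 2.18 to 9.89 and passed only without CTL replicate 2 (adjusted p = 0.0334). Where a call changed, the cause was not tested. With 3 rats per group, whole-kidney RNA and no record of the salt intake of CTL rats, small changes of single segments could not be measured.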
